A study of Mus musculus with 18 samples.

Results

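The 5 genes described here encode the carrier and the enzymes that decide how much L-arginine a myeloid suppressor cell takes up and what becomes of it: Slc7a2, Arg1, Arg2, Nos2 and Ass1. They were chosen by name, and each symbol matched 1 of the 54838 rows of the count table. RNA sequencing was carried out on wild-type C57BL/6 mouse cells, in 18 libraries of 6 groups with 3 libraries each. Myeloid-derived suppressor cells (MDSC) were differentiated from bone marrow for 5 days, sorted on surface antigens, plated, and collected on the following day after incubation with cycloheximide, which holds ribosomes on their mRNA. The population LY6G was CD11b high, Ly6G high and Ly6C intermediate, and the population LY6C was CD11b high, Ly6G negative and Ly6C high. Bone marrow (BM) was flushed from the femurs of 3 mice and freed of red cells. From each kind of cell, polysomal RNA (mRNA recovered from the polysome fractions of a sucrose gradient) and total RNA were sequenced after removal of ribosomal RNA. Sorted libraries carry the numbers 2, 3 and 6, and BM libraries the numbers 1, 2 and 3. The labels do not say what a number stands for, so the p-values below measure the spread between these libraries.

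Arginine enters cells through cationic amino acid carriers and is split by arginase into ornithine and urea, or oxidised by nitric oxide synthase to nitric oxide and citrulline. Citrulline can be turned back into arginine by argininosuccinate synthase and argininosuccinate lyase. MDSC are known for holding back T cells in part by using up extracellular arginine and by releasing nitric oxide, and Arg1 and Nos2 are among the genes most often measured to describe them.

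On the GRCm38 assembly, Slc7a2 (ENSMUSG00000031596) lies on chromosome 8 at 40862396 to 40922308, plus strand. Arg1 (ENSMUSG00000019987) lies on chromosome 10 at 24915221 to 24927484, minus strand, and Arg2 (ENSMUSG00000021125) on chromosome 12 at 79130777 to 79156301, plus strand. Nos2 (ENSMUSG00000020826) lies on chromosome 11 at 78920787 to 78960254, plus strand, and Ass1 (ENSMUSG00000076441) on chromosome 2 at 31470207 to 31520672, plus strand. Values are counts over annotated genes, scaled to counts per 1000000 counts of a library (CPM), with library sizes adjusted by TMM factors. Arg2 shares 285 exon bases with Vti1b on the opposite strand. Vti1b held 4274 counts over all libraries against 8153 for Arg2, and because no source used here gives the strand setting of the counting, Arg2 values are uncertain.

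Libraries held between 8559897 and 26225431 counts, but depth in messenger RNA was unequal. Counts in protein-coding genes, as a share, a library size or a setting, leave out mitochondrial genes and Lars2 throughout. The remaining protein-coding genes took 37.3 to 94.6% of the counts in sorted cells. In BM they took only 1.82 to 3.71% in the polysomal and 0.232 to 0.291% in the total libraries. A level of 1 CPM therefore rested on 18 to 110 counts in a sorted library, on 1.73 to 3.51 counts in BM polysomal libraries and on 0.472 to 0.611 in BM total libraries. The transcript of the sort antigen, Ly6g, was low in both populations, at 4.03 ± 4.07 CPM in LY6G and 3.38 ± 1.34 CPM in LY6C total RNA (mean ± SD, n = 3 each). The summed level of 8 monocyte and macrophage markers was 1490 to 1897 CPM in LY6G, 871 to 2038 CPM in LY6C and 88.8 to 106 CPM in BM total RNA. Erythroid markers summed to 7.03 CPM at most in the sorted libraries, against 448 to 1022 CPM in BM libraries. In such bulk samples, fewer cells of a type and less RNA per cell cannot be told apart.

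Slc7a2, which encodes the cationic amino acid transporter CAT2 and so stands at the entry of the pathway, was carried by every sorted library. In polysomal RNA of numbers 2, 3 and 6 it stood at 47.3, 56.9 and 183 CPM in LY6G and at 46.4, 21 and 434 CPM in LY6C. Total RNA held 46.7, 54.7 and 177 CPM in LY6G and 36.5, 16.2 and 182 CPM in LY6C. BM polysomal RNA had 8, 2 and 0 counts and BM total RNA had 0 counts in all 3 libraries. Number 6 was the highest sorted library in all 4 groups, and every sorted library lay above the BM libraries.

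Arg1, the cytosolic arginase that is also the last enzyme of the urea cycle in liver, was detected in all 12 sorted libraries over a wide range. In polysomal RNA of numbers 2, 3 and 6 it stood at 16.9, 10.7 and 477 CPM in LY6G and at 7.82, 2.67 and 661 CPM in LY6C. Its total RNA level was 15.1, 10.6 and 206 CPM in LY6G and 6.08, 2.55 and 287 CPM in LY6C. All 6 BM libraries had 0 counts, which allows up to 0.371 CPM over the 3 polysomal and 1.91 CPM over the 3 total libraries when 3 counts are taken as the limit (counting error only). Number 6 lay far above the other numbers in each sorted group, while the 2 populations overlapped in both fractions.

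Arg2, the mitochondrial arginase, was low and even. In polysomal RNA of numbers 2, 3 and 6 it stood at 10.4, 5.81 and 13.1 CPM in LY6G and at 11.4, 4.44 and 12.5 CPM in LY6C. In total RNA it stood at 11.3, 6.39 and 7.6 CPM in LY6G and at 13.4, 3.6 and 7.4 CPM in LY6C. Number 3 was the lowest library in every sorted group, and the populations overlapped. BM polysomal RNA of numbers 1, 2 and 3 had 3, 0 and 12 counts and BM total RNA had 0, 0 and 5 counts, so the 5 counts of 1 BM total library, 10.3 CPM, lay within the range of the sorted cells.

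Nos2, the inducible nitric oxide synthase, had the widest range of the 5 genes. In polysomal RNA of numbers 2, 3 and 6 it stood at 1.12, 1.61 and 37.1 CPM in LY6G and at 0.769, 0.939 and 371 CPM in LY6C. In total RNA it stood at 1.1, 1.41 and 26.3 CPM in LY6G and at 0.626, 1.05 and 126 CPM in LY6C. The 6 BM libraries had 0 counts. Numbers 2 and 3 were close to 1 CPM throughout and number 6 was high in all 4 sorted groups, above all in LY6C.

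Ass1, the argininosuccinate synthase that starts the recycling of citrulline, was high in every sorted library. In polysomal RNA of numbers 2, 3 and 6 it stood at 63.6, 77.8 and 126 CPM in LY6G and at 73.4, 39.5 and 347 CPM in LY6C. In total RNA it stood at 51.1, 56.6 and 46.6 CPM in LY6G and at 56.2, 22.4 and 102 CPM in LY6C. BM polysomal RNA held 16, 6 and 12 counts, or 4.56, 3.47 and 4.22 CPM, and BM total RNA held 1 count in 1 library and 0 in the others. The BM libraries lay below all sorted libraries, and the LY6G total RNA libraries were the closest to each other of any sorted group of this gene, at 51.4 ± 5 CPM (SD, n = 3).

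**Figure D1:**
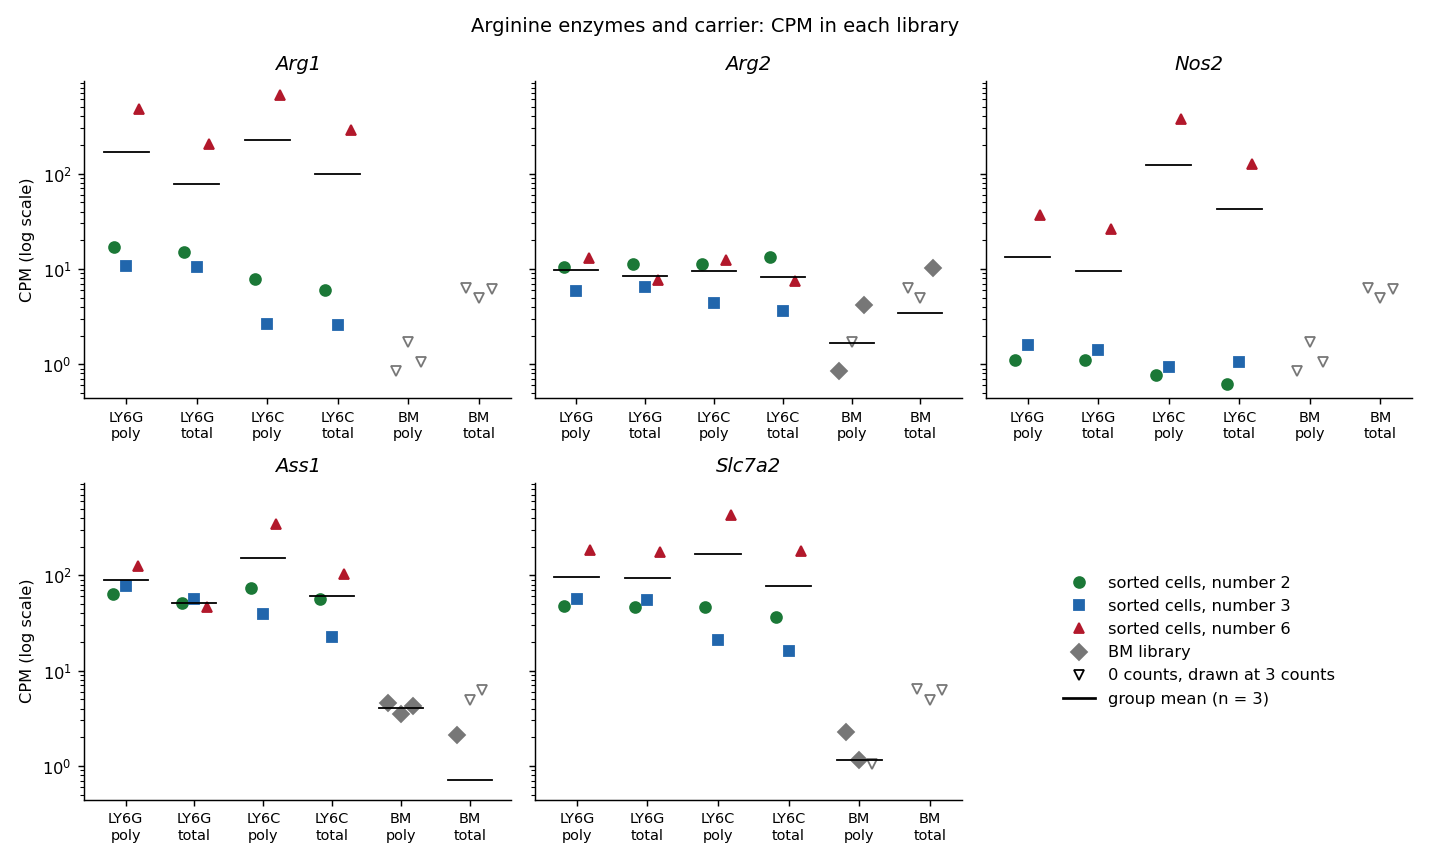
CPM of the 5 genes in each of the 18 libraries on a log scale, by population and fraction; filled symbols are libraries, coloured by number in sorted cells, open triangles are libraries with 0 counts drawn at the level of 3 counts, and lines are group means (n = 3). Number 6 is the highest sorted library for Arg1, Nos2 and Slc7a2 in all 4 sorted groups, while Arg2 and Ass1 spread less.

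The Ass1 promoter is shown because Ass1 had the steadiest difference from BM of the 5 genes, and it was the only member with a promoter entry among the RefSeq sequences used (1 of 5, build GRCm38.p6). The 250 bases before the RefSeq start, chr2:31470020-31470269, plus strand, read 5′ to 3′ as follows, with capitals marking matches to a GC box (GGGCGG) and an E-box (CACGTG).
Ass1 promoter: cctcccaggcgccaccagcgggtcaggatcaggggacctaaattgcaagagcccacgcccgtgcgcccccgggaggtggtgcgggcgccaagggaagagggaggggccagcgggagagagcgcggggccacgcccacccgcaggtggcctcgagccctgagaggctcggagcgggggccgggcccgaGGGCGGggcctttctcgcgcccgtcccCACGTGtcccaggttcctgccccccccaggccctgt
The GENCODE start of Ass1 given above lies upstream of this RefSeq start, so the last 63 bases of the window, which hold both matches, lie inside the gene as GENCODE has it. Motifs were searched on both strands, and the 2 in capitals do not overlap. Of 32851 promoters of the same length, 32.74% held a GC box and 6.02% an E-box. CCAAT, present in 33.85% of promoters, and TATAAA, present in 12.37%, had no match in this window. A match describes the letters and does not show that a factor binds there.

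Levels of different genes were compared per kilobase of exon, as CPM per kb. In numbers 2 and 3, Ass1 ranked first and Nos2 last in all 8 libraries. In number 6, Arg1 ranked first in all 4 libraries. In LY6C polysomal RNA of number 6, Arg1 reached 297 CPM per kb and Ass1 144, whereas in number 2 of the same group Ass1 was at 30.4 and Arg1 at 3.51 CPM per kb. The leading gene of the pathway thus differed between numbers and not between populations in these libraries. The middle ranks changed from library to library: in LY6C, Arg2 was second in all 4 libraries of numbers 2 and 3, and in number 3 of LY6G Slc7a2 was second in both fractions.

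The spread between numbers was the main feature of Arg1 and Nos2. Nos2 of number 6 stood 27.2-fold (polysomal) and 21-fold (total) above the mean of numbers 2 and 3 in LY6G, and 434-fold and 150-fold above it in LY6C. Arg1 of number 6 stood 34.5-fold and 16-fold above that mean in LY6G, and 126-fold and 66.5-fold above it in LY6C. Slc7a2 was 3.51-fold and 3.49-fold higher in LY6G and 12.9-fold and 6.91-fold higher in LY6C. Ass1 was 1.78-fold higher in polysomal and 0.866-fold in total RNA of LY6G, and 6.15-fold and 2.59-fold higher in LY6C, whereas Arg2 lay between 0.86-fold and 1.62-fold in all 4 groups. For all 5 genes the polysomal fold was at least as large as the total one in each population. How many of all genes had this order was not counted.

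**Figure D2:**
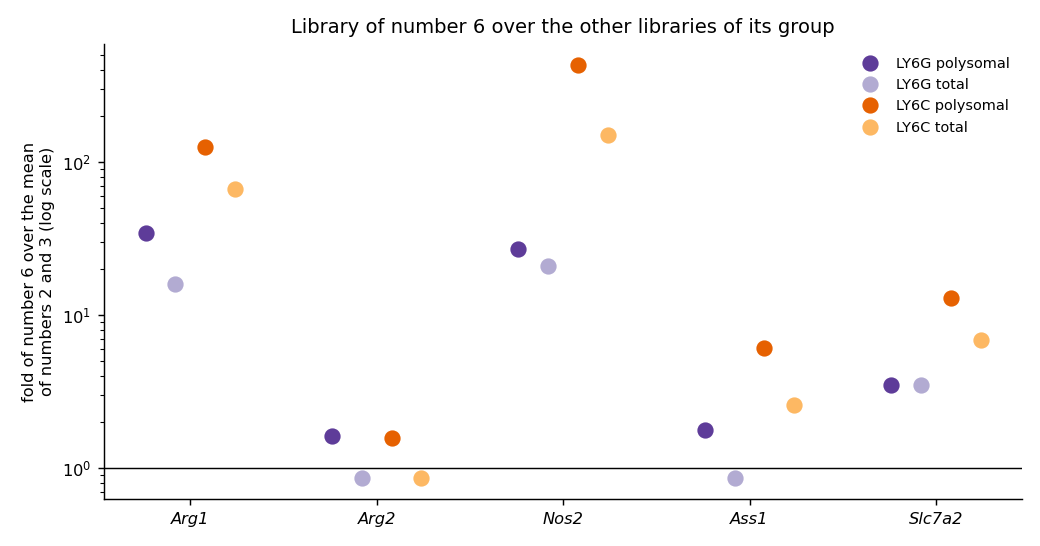
Fold of the number 6 library over the mean of numbers 2 and 3 (log scale) for each gene in the 4 sorted groups, 1 point a group. Nos2 and Arg1 lie between 16-fold and 434-fold, and Arg2 lies between 0.86-fold and 1.62-fold.

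Set against the other genes, this spread was uncommon. Of 9807 genes with a mean of at least 1 CPM in sorted cells, number 6 was the highest library in all 4 sorted groups for 1338 (13.6%), among them Arg1, Nos2 and Slc7a2. Only 22 genes (0.224%) exceeded both other numbers more than 5-fold in all 4 groups, and 7 exceeded them more than 10-fold. Ranked by the smallest of their 4 ratios, Nos2 was in place 1 (18.7-fold), Arg1 in place 5 (13.6-fold) and Slc7a2 in place 61 (3.21-fold). The other 5 genes above 10-fold, named after their values were seen, were H2-Q7, H2-Q6, Slc1a2, Gm6545 and Ms4a4a. H2-Q7 and H2-Q6 are near-identical class I genes between which reads may be split. No gene exceeded the others 5-fold in number 2 or in number 3.

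Other features of number 6 were measured beside this pattern, and their part in it was not tested. The summed level of 10 neutrophil markers in total RNA of number 6 was 570 CPM in LY6G, against 1014 and 1085 CPM in numbers 2 and 3, and 475 CPM in LY6C, against 1252 and 3356 CPM. In LY6G polysomal RNA it was 812 CPM against 1155 and 1220 CPM. In LY6C polysomal RNA, where Arg1 and Nos2 were highest, number 6 was level with number 2, at 1232 CPM against 1245 CPM, and number 3 had 4183 CPM. The 5 megakaryocyte and platelet markers summed highest there, at 223 CPM against 61.1 and 52.4 CPM in LY6G polysomal RNA and at 342 CPM against 36.4 and 14.2 CPM in LY6C polysomal RNA. Pf4 gave most of that sum (315 CPM in LY6C polysomal RNA of number 6), while Gp1bb was at 0 in LY6C. The LY6C libraries of numbers 3 and 6 were also the shallowest sorted ones, with 18 to 39.4 counts per CPM.

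Between the populations, no member was called in either fraction by edgeR's quasi-likelihood test at an adjusted p under 0.05, where 0% of the 14181 tested genes were called. At an unadjusted p under 0.05, 833 genes (5.87%) passed in polysomal RNA and 565 (3.98%) in total RNA, none of them a member. In polysomal RNA the log2 difference, LY6G minus LY6C, was −0.41 ± 2.46 for Arg1, −3.22 ± 2.90 for Nos2, −0.78 ± 0.61 for Ass1, −0.80 ± 1.13 for Slc7a2 and 0.06 ± 0.62 for Arg2 (± SE). In total RNA it was −0.35 ± 2.46 for Arg1, −2.14 ± 2.79 for Nos2, −0.23 ± 0.61 for Ass1, 0.25 ± 1.13 for Slc7a2 and 0.04 ± 0.62 for Arg2. For Arg1 and Nos2 these errors are several log2 units, so a large difference between the populations would not have been called.

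Within numbers the populations did not keep 1 order, which was common among all genes. Of 9803 genes with a mean of at least 1 CPM in sorted cells, 16.1% were higher in LY6G in every number in polysomal RNA, and 26.9% lower. In total RNA these shares were 15.6% and 24.7%, so a changing order is not particular to the members. Arg1 was 2.17-fold (polysomal) and 2.48-fold (total) higher in LY6G than in LY6C in number 2, and 4.01-fold and 4.15-fold higher in number 3. In number 6 the Arg1 ratio of LY6G to LY6C was 0.722 and 0.718. With protein-coding counts as library size it was 0.963 and 0.799, so the polysomal ratio was close to 1. Nos2 followed the same signs, with ratios of 1.45 and 1.76 in number 2, 1.71 and 1.34 in number 3, and 0.1 and 0.21 in number 6. Ass1 was 1.97-fold and 2.53-fold higher in LY6G in number 3 only, with ratios of 0.866 and 0.908 in number 2 and 0.362 and 0.457 in number 6. Slc7a2 ratios were 1.02 and 1.28 in number 2, 2.71 and 3.38 in number 3, and 0.421 and 0.973 in number 6. With protein-coding counts as library size the Slc7a2 ratio of number 6 in total RNA was 1.08. Arg2 ratios lay between 0.841 and 1.77.

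**Figure D3:**
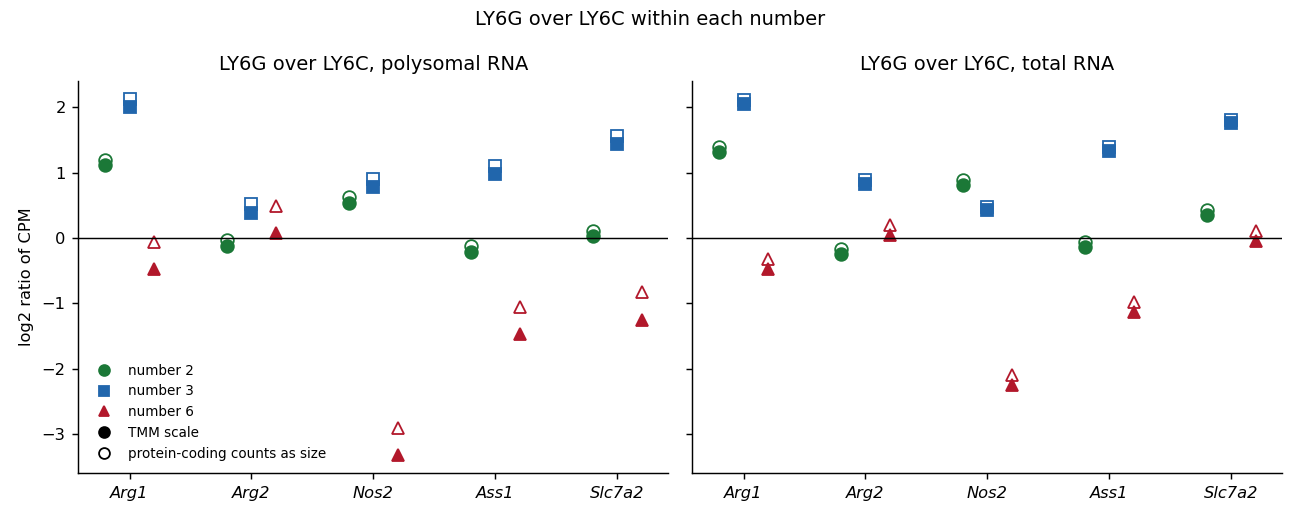
Log2 ratio of CPM, LY6G over LY6C, within each number, in polysomal (left) and total RNA (right); filled symbols use TMM factors and open symbols the counts in protein-coding genes as library size. Arg1 and Nos2 lie above 0 in numbers 2 and 3 and below 0 in number 6, where Nos2 has ratios of 0.1 and 0.21.

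Fits that used the number bear on the direction of these differences. With the number as a block for sorted cells, Arg1 was higher in LY6G by 0.71 ± 0.49 in polysomal and 1.11 ± 0.50 in total RNA on the log2 scale (edgeR, adjusted p = 0.57 and 0.505), so its sign turned and it was still not called. Without number 6, the Arg1 difference was 1.40 ± 0.56 in polysomal and 1.55 ± 0.57 in total RNA, and the Nos2 difference was 0.72 ± 0.55 and 0.65 ± 0.57, with an adjusted p of 1 for both genes in both fractions.

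Against BM, Ass1 and Slc7a2 were higher in both sorted populations and both fractions, and Arg2 was higher in polysomal RNA. In polysomal RNA 3 of 5 members were thus called higher, where 22.1% of all genes were called higher in LY6G and 20.2% in LY6C. In total RNA 2 of 5 were called higher, against 21.5% of all genes in LY6G and 20.5% in LY6C. The median log2 difference over all genes was itself above 0, at 0.45 and 1.63 in LY6G polysomal and total RNA and at 0.52 and 1.64 in LY6C. It moved with the fit. With voom in place of edgeR it was 0.12 and 0.042 in LY6G and 0.12 and 0.053 in LY6C. With the number as a block in sorted cells and in BM it was 0.97 and 1.94 in LY6G and 0.98 and 1.88 in LY6C. List medians below were taken only in the edgeR fit without a block. BM was neither cultured nor sorted, so population, culture and sorting cannot be told apart in these comparisons.

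Ass1 in polysomal RNA averaged 89.1 ± 32.6 CPM in LY6G and 153 ± 169 CPM in LY6C, against 4.08 ± 0.56 CPM in BM (SD, n = 3 each). The log2 differences were 4.43 ± 0.75 in LY6G (edgeR, adjusted p = 0.000178) and 5.21 ± 0.77 in LY6C (adjusted p = 6.38e-05). In total RNA, where BM held 1 count, the pooled ratio was 80.2 in LY6G (95% counting interval 14.4 to 3167) and 93.2 in LY6C (16.7 to 3681), with adjusted p = 0.000842 and 0.000674. Without number 6 the polysomal differences were 3.98 in LY6G and 3.62 in LY6C, and they passed the test in every fit that left out 1 library or 1 number.

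Slc7a2 in polysomal RNA averaged 95.7 ± 75.7 CPM in LY6G and 167 ± 232 CPM in LY6C, against 1.15 ± 1.14 CPM in BM. Its log2 differences were 6.31 ± 1.60 in LY6G (edgeR, adjusted p = 0.00817) and 7.11 ± 1.63 in LY6C (adjusted p = 0.00549), and 5.31 and 4.66 without number 6. In total RNA, against 0 counts in BM, Slc7a2 was at least 47.5-fold higher in LY6G (adjusted p = 0.0213) and at least 29.8-fold higher in LY6C (adjusted p = 0.0281), with 3 counts over the BM group as the floor. The total RNA call in LY6G was lost without LY6G number 6, without BM number 2 or without number 2 of all sorted groups. That in LY6C was lost without LY6C number 6, without any 1 of the 3 BM libraries or without number 2 of all sorted groups. The adjusted p went up to 0.0866 (edgeR).

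Arg2 in polysomal RNA averaged 9.8 ± 3.7 CPM in LY6G and 9.43 ± 4.35 CPM in LY6C, against 1.69 ± 2.23 CPM in BM. Its log2 differences were 2.43 ± 0.81 in LY6G (edgeR, adjusted p = 0.0234) and 2.37 ± 0.81 in LY6C (adjusted p = 0.0311). In total RNA they were 1.38 ± 1.05 and 1.34 ± 1.05, with adjusted p = 0.347 and 0.38. Leaving out BM number 1 or BM number 2, or sorted number 6 of the same group, ended the polysomal call in both populations. So did leaving number 2 or 6 out of all sorted groups, and LY6C number 2 ended it in LY6C. The adjusted p went up to 0.116 in LY6G and 0.156 in LY6C (edgeR). Fitting with voom in place of edgeR also ended the call in LY6C (log2 difference 2.75, adjusted p = 0.056).

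Arg1 and Nos2 were not called against BM although BM had 0 counts of both. Arg1 averaged 168 ± 267 CPM in LY6G and 224 ± 379 CPM in LY6C polysomal RNA, at least 423-fold and at least 271-fold higher than BM at the floor of 3 counts, with adjusted p = 0.108 and 0.109 (edgeR). In total RNA it averaged 77.3 ± 112 and 98.6 ± 163 CPM, at least 39.4-fold and at least 26.1-fold higher over the pooled group, bounds that number 6 carries, with adjusted p = 0.306 and 0.293. Nos2 averaged 13.3 ± 20.6 CPM in LY6G and 124 ± 214 CPM in LY6C polysomal RNA, at least 33.5-fold and at least 146-fold higher, with adjusted p = 0.331 and 0.169. In total RNA Nos2 averaged 9.62 ± 14.5 and 42.5 ± 72.1 CPM, at least 4.88-fold and at least 10.7-fold higher, with adjusted p = 0.612 and 0.447. Every SD here exceeds its mean.

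The lowest sorted library of Arg1 was still at least 28.8-fold (LY6G) and at least 7.18-fold (LY6C) above the polysomal BM floor, and that of Nos2 at least 3.01-fold and at least 2.07-fold. In total RNA, where the BM floor is 1.91 CPM, the lowest Arg1 library was at least 5.52-fold (LY6G) and at least 1.33-fold (LY6C) above it, and the lowest Nos2 libraries lay under it. With the number as a block for sorted cells, Arg1 was called higher in all 4 comparisons with BM. Adjusted p was 8.39e-06 and 0.0011 in LY6G polysomal and total RNA and 3.42e-05 and 0.00842 in LY6C (edgeR). In this fit BM had no number term, and the spread between sorted numbers was taken out of the error. The SE of Arg1 in LY6G polysomal RNA fell from 7.01 to 1.67, so these p-values do not measure that spread. Under that block 4 of 5 members were called in polysomal and 3 of 5 in total RNA of both populations. It also called more of all genes in either direction, with 44.9% and 32.5% in LY6G polysomal and total RNA (37.5% and 30.8% without the block) and 39% and 29.2% in LY6C (31.4% and 27.9%). Without number 6, Arg1 was called in LY6G polysomal and total RNA and in LY6C polysomal RNA. Nos2 was then called in polysomal RNA of both populations (edgeR, adjusted p = 0.00759 in LY6G and 0.0289 in LY6C). Of all genes, 4971 and 3493 were called in either direction in LY6G polysomal and total RNA, and 4066 in LY6C polysomal RNA. These fits leave out the libraries that carry most of the spread. The SE of Arg1 in LY6G polysomal RNA was 1.81, so these p-values do not measure that spread either.

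Polysomal RNA was compared with total RNA to ask whether a transcript is carried by polysomes in proportion to its abundance. No member was called in any cell type, where 0% of genes were called in LY6G and in LY6C and 3.39% in BM, and none was called for the difference between LY6G and LY6C in polysomal minus total RNA (0% of genes). At an unadjusted p under 0.05, 254 genes (1.79%) passed in LY6G and 433 (3.05%) in LY6C, and Ass1 in LY6C was the 1 member among them. Ass1 had log2 differences, polysomal minus total, of 0.79 ± 0.61 in LY6G and 1.35 ± 0.62 in LY6C (edgeR, adjusted p = 1 for both; unadjusted p = 0.209 and 0.0421). Without LY6C polysomal number 6 the LY6C value was −0.085. In BM, Ass1 stood at 4.08 ± 0.56 CPM in polysomal and 0.706 ± 1.22 CPM in total RNA, a log2 difference of 2.69 ± 1.67 (adjusted p = 0.408).

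Within numbers, the Ass1 ratio of polysomal to total RNA was 1.25, 1.38 and 2.7 in LY6G and 1.31, 1.76 and 3.4 in LY6C for numbers 2, 3 and 6, above 1 in all 6 pairs. For Arg1 it was 1.12, 1.01 and 2.31 in LY6G and 1.29, 1.05 and 2.3 in LY6C, so number 6 stood apart in both populations. Slc7a2 kept a ratio near 1 in LY6G, at 1.01, 1.04 and 1.03, and reached 1.27, 1.3 and 2.39 in LY6C. Of 9807 genes, 22.7% were above 1 in all 6 pairs, among them Arg1, Ass1 and Slc7a2. With protein-coding counts as library size 11.4% were, and Ass1 was the only member left.

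The Nos2 ratios of polysomal to total RNA were 1.01, 1.14 and 1.41 in LY6G and 1.23, 0.892 and 2.95 in LY6C, in the same order of numbers. Those of Arg2 were 0.925, 0.91 and 1.73 in LY6G and 0.845, 1.23 and 1.69 in LY6C. In each population number 6 had the highest ratio for Arg1, Arg2, Nos2 and Ass1. The share of all genes with number 6 highest was not counted, so this order is not shown to be particular to these genes.

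**Figure D4:**
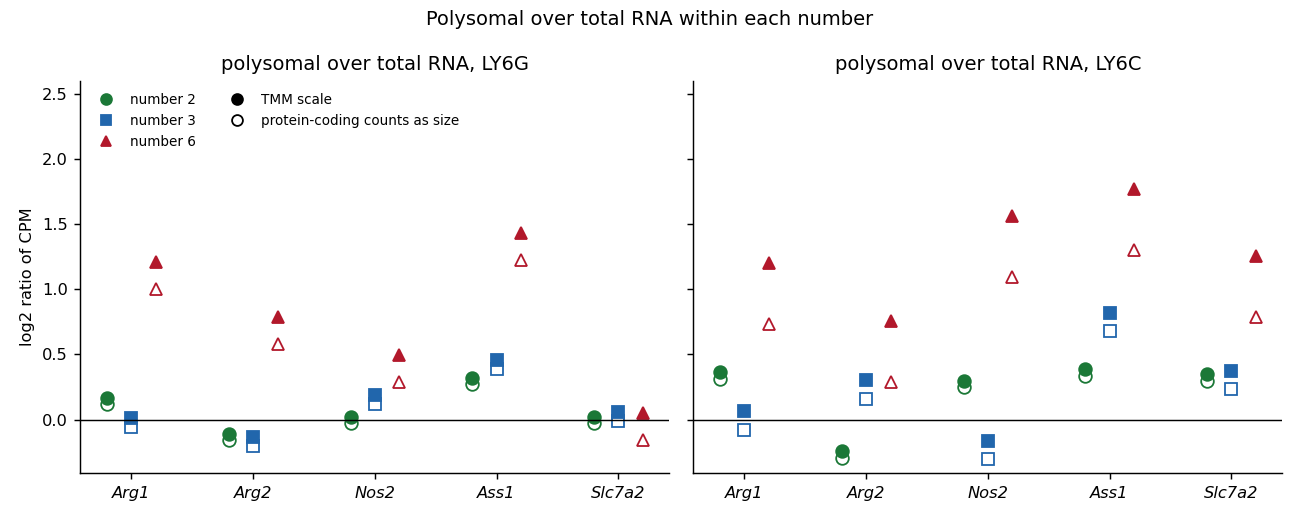
Log2 ratio of CPM, polysomal over total RNA, within each number, in LY6G (left) and LY6C (right); filled symbols use TMM factors and open symbols the counts in protein-coding genes as library size. Ass1 lies above 0 in all 6 pairs on both scales, and number 6 is the highest for Arg1, Arg2, Nos2 and Ass1 in both populations. The share of all genes with number 6 highest was not counted.

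Genes that act next to the 5 members were followed as lists. Ornithine from arginase feeds the polyamines, and of 11 genes of polyamine synthesis and turnover 2 were called higher and 2 lower than in BM in each of the 4 comparisons. Over all genes, 22.1% and 21.5% were called higher in LY6G polysomal and total RNA, and 20.2% and 20.5% in LY6C, shares against which the counts of the lists below are to be read. Over all genes, 15.3% and 9.39% were called lower in LY6G polysomal and total RNA, and 11.2% and 7.4% in LY6C. The median log2 difference was −0.42 and 0.24 in LY6G polysomal and total RNA, against 0.45 and 1.63 over all genes, and −0.63 and −0.07 in LY6C, against 0.52 and 1.64. Odc1, the ornithine decarboxylase that opens the pathway, averaged 22.7 CPM in LY6G and 23.3 CPM in LY6C polysomal RNA, against 51.8 CPM in BM (log2 differences −1.19 ± 0.39 and −1.16 ± 0.39, edgeR, adjusted p = 0.0198 and 0.0268). Sat1, which acetylates polyamines for breakdown, rose to 41.5 CPM in LY6G and 25.3 CPM in LY6C polysomal RNA, against 6.47 CPM in BM (adjusted p = 0.00024 and 0.00362). Oaz1, an antizyme that inhibits ornithine decarboxylase, was higher too, by 0.97 ± 0.34 and 1.03 ± 0.34.

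Of 13 further urea cycle, citrulline and proline genes, 8 passed the filter on low counts. In polysomal RNA 0 were called higher in LY6G and 1 in LY6C, with 1 lower in LY6G. In total RNA 1 was called higher in each population. The median log2 difference was −0.32 and 0.91 in LY6G polysomal and total RNA, against 0.45 and 1.63 over all genes. In LY6C it was 0.15 and 1.71, against 0.52 and 1.64. Asl, the argininosuccinate lyase that completes the recycling begun by Ass1, was called higher in LY6C polysomal RNA, at 11.6 CPM against 3.69 CPM in BM (log2 difference 1.61 ± 0.49, edgeR, adjusted p = 0.0189). In total RNA Asl was at least 2.83-fold higher in LY6G and at least 3.74-fold higher in LY6C than in BM, which had 0 counts. Oat, the ornithine aminotransferase, was lower in LY6G polysomal RNA, at 19.2 CPM against 52.2 CPM in BM (−1.45 ± 0.43, adjusted p = 0.0113). Otc, Cps1, Prodh and Gatm had 0 counts in all 12 sorted libraries.

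Of 9 genes of nitric oxide synthesis other than Nos2, 6 passed the filter. Gch1, the first enzyme of the cofactor tetrahydrobiopterin, was higher in polysomal RNA, at 21.8 CPM in LY6G and 30.8 CPM in LY6C against 1.46 CPM in BM (log2 differences 4.19 ± 0.78 and 4.68 ± 0.78, edgeR, adjusted p = 0.000364 and 0.000162). Qdpr, which regenerates the cofactor, rose by 0.98 ± 0.38 in LY6G and 1.26 ± 0.38 in LY6C. Nos1 and Nos3 were each at or under 0.0997 CPM in every sorted library. The 2 called members of this list in polysomal RNA were Gch1 and Qdpr in both populations, and in total RNA Spr, another cofactor enzyme, was called lower in LY6G (−1.63 ± 0.49, adjusted p = 0.0154).

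Of 8 further basic amino acid carriers, 7 passed the filter. In polysomal RNA 3 were called higher in LY6G and 4 in LY6C, and in total RNA 5 in each, where 20.2 to 22.1% of all genes were called higher in the 4 comparisons. The median log2 difference was 1.03 and 2.75 in LY6G polysomal and total RNA, against 0.45 and 1.63 over all genes, and 1.55 and 2.72 in LY6C, against 0.52 and 1.64. Slc3a2, the heavy chain shared by several amino acid carriers, averaged 83.5 CPM in LY6G and 119 CPM in LY6C polysomal RNA, against 11.4 CPM in BM (log2 differences 2.86 ± 0.49 and 3.37 ± 0.50, edgeR, adjusted p = 0.000156 and 4.77e-05). Slc25a15, the mitochondrial ornithine carrier, was higher by 2.09 ± 0.63 and 2.07 ± 0.63, and Slc38a9, a lysosomal arginine sensor, was called lower in LY6C in both fractions (−1.46 ± 0.46 in polysomal RNA, adjusted p = 0.021).

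Regulators known to act on Arg1 or Nos2 were higher than in BM for 8 of 10 genes in polysomal and 7 of 10 in total RNA of both populations, with none lower. Their median log2 difference in polysomal RNA was 1.96 in LY6G and 1.72 in LY6C, against 0.45 and 0.52 over all genes. Cebpb, a bZIP factor of myeloid cells, averaged 258 CPM in LY6G and 245 CPM in LY6C polysomal RNA against 24.1 CPM in BM (3.42 ± 0.43 and 3.34 ± 0.43, edgeR, adjusted p = 6.18e-06 and 9.65e-06). Hif1a, the oxygen-regulated factor, rose by 3.68 ± 0.72 and 3.75 ± 0.72. Of 12 genes of the macrophage response to interferon gamma and LPS, 11 were tested, and 5 in LY6G and 6 in LY6C were called higher in polysomal RNA with Irf8 lower in both. Of 12 genes of the response to interleukin-4, 11 were tested, and 9 were called higher in polysomal RNA of each population with Alox15 lower. In none of these lists was a gene called between LY6G and LY6C. Because 0% of the 14181 tested genes were called there in either fraction, this says nothing particular about the lists.

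The same lists were followed across numbers. Differences of log2 CPM between number 6 and the mean of numbers 2 and 3 were averaged over the 4 sorted groups. Their median was 2.58 for the 5 arginine genes, with Nos2 highest at 6.25 and Arg2 lowest at 0.37, and −0.02 for all 14181 genes. Arg2 thus lay within the range of the other lists. So did the median of 2.58, since Ccl24 of the interleukin-4 list reached 2.78. Members at or under the median were therefore not set apart from the genes of the other lists. The interferon gamma and LPS list had a median of 1.06 with 9 of 11 genes above 0, Il6 highest at 2.61 and Tnf lowest at −1.25. The interleukin-4 list had 0.24, with Ccl24 highest at 2.78 and Mgl2 lowest at −2.71, and the regulators had 0.20, with Hif1a highest at 1.30. Polyamine genes (−0.13), urea cycle and proline genes (−0.22), nitric oxide cofactor genes (−0.12) and the other carriers (0.11) stayed near 0, with Smox, a spermine oxidase, at 1.17 and Gch1 at 0.87. Lists of cell type markers moved as well. The median was 1.75 for the 3 tested megakaryocyte and platelet genes and 0.81 for eosinophil, basophil and mast cell genes. It was 0.67 for monocyte and macrophage genes, with 5 of 8 above 0 and Ccr2 lowest at −2.44. It was 0.64 for erythroid genes, with 6 of 6 above 0. Erythroid sums were low, and number 6 was highest in LY6G only. In total RNA number 6 had 3.34 CPM against 0.178 and 0.0634 CPM in LY6G, and 2.08 CPM against 7.03 and 1.83 CPM in LY6C. In polysomal RNA it had 1.29 CPM against 0.186 and 0.135 CPM in LY6G, and 0.835 CPM against 1.3 and 2.03 CPM in LY6C. The list median was 0.53 for genes of stroma and endothelium and 0.10 for B and plasma cell genes. It was −0.92 for the 2 tested dendritic cell genes and −1.15 for neutrophil genes. Of 10 neutrophil genes only Ly6g, at 1.47, was above 0. The part of these cell types in the pattern of the arginine genes was not tested.

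**Figure D5:**
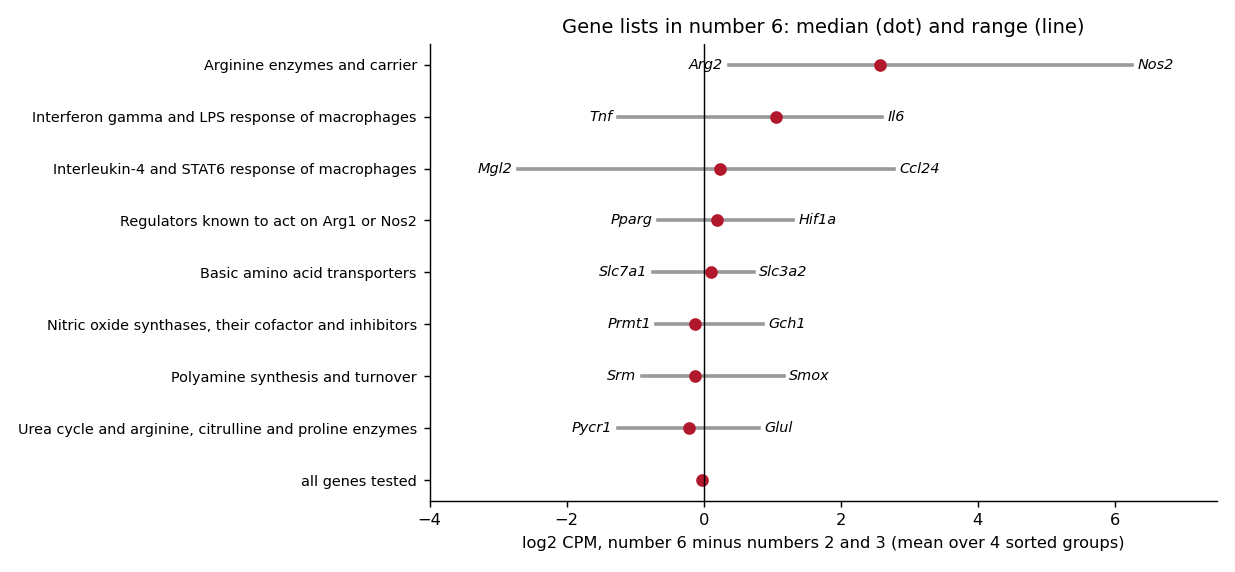
Difference of log2 CPM between number 6 and the mean of numbers 2 and 3, averaged over the 4 sorted groups; dots are list medians and lines run between the lowest and highest gene of each list, which are named. The 5 arginine genes have a median of 2.58 and run between 0.37 (Arg2) and 6.25 (Nos2), the interferon gamma and LPS list has 1.06, and the medians of the other pathway lists shown lie between −0.22 and 0.24.

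Genes with the pattern most like each member over the 12 sorted libraries were found by Pearson's r of log2 CPM among 4220 protein-coding genes with a mean of at least 10 CPM. These r describe 12 libraries that share numbers, fractions and depth, and the library of number 6 weighs on them. Arg1 was closest to Abca1 (r = 0.99), Adam8 (0.981), Adgrl2 (0.981), Cacna1d (0.98) and Maf (0.98). Nos2 was closest to H2-Q4 (0.986), Helz2 (0.983), Agrn (0.983), Stat2 (0.982) and Sp100 (0.982), and Slc7a2 to Ifi204 (0.993), Tmem106a (0.987), Sdc4 (0.987), Npc2 (0.987) and Cxcl16 (0.985). Ass1 was closest to Psap (0.987), Ctss (0.986), Dync1i2 (0.981), Vwa5a (0.976) and Basp1 (0.97). Arg2 was closest to Klf10 (0.956), Nfkbia (0.942), Fpr1 (0.932), Zmiz1 (0.93) and Cers2 (0.929). The 5 sets of nearest genes had no gene in common, but each held only 5 of the 4220 genes. Wider sets were not compared, so this does not show that the members differ in their nearest genes. Over the 6 total RNA libraries alone the sets were largely different: Arg1 kept 2 of its 5 genes (Abca1 and Cacna1d), Nos2 kept 1 (Stat2), and Ass1, Slc7a2 and Arg2 kept 0. Among the members, Arg1 had r = 0.972 with Slc7a2 and 0.941 with Nos2, while Arg2 had at most 0.615 with any other member. In the 6 total RNA libraries, Arg1 had 0.98 with Slc7a2 and 0.94 with Nos2, and the r of Arg2 with Nos2 was −0.095, against 0.259 over 12 libraries.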

How the data were processed

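The deposited table holds raw counts, as the authors made them, for 54838 gene identifiers in 18 libraries. The submitters' processing notes list FastQC, STAR 2.5.2a, DESeq and DESeq2 with the GRCm38 genome. The counting program, its annotation and its strand setting are not given in the sources used here. Names, coordinates and exon lengths came from GENCODE M21, which matched 54809 identifiers.

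Counts were fitted with edgeR 4.0.16 in R 4.3.3: filterByExpr with a minimum count of 10 kept 14181 genes, TMM factors scaled the libraries, and robust quasi-likelihood tests on 6 group means without a block gave p-values, adjusted by Benjamini-Hochberg over all genes of a comparison. The prior count was 2, the common dispersion 0.163, and a call an adjusted p under 0.05. The fit was also run on simulated counts in which the number had no effect, so that run cannot speak to such an effect. Alternatives were a fit with DESeq2 1.42.0 or with voom of limma 3.58.1, median-ratio in place of TMM factors, an unfiltered table, a stricter filter (50 counts in 3 libraries), protein-coding genes only, thinning to 54944 counts, the compared libraries alone, the number as a block, and every library or number left out in turn. A number left out was removed from the sorted groups only, and BM was kept whole. A pair of block fits, for sorted cells only and in the compared libraries alone, was chosen after seeing the data.

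Deviations from group means correlated between same-numbered sorted libraries at 0.27 to 0.74, so the numbers in the sample names pair them. For BM fractions the values were 0.027, 0.011 and 0.0047, which does not show a pairing. Within each group no libraries were duplicates, and pairs across groups were not checked for this. A fold against 0 counts takes 3 counts over the group as its floor, and a ratio to 1 count is given with its exact 95% interval.

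The 5 members, the gene lists and the tests were chosen with earlier results of these data known. Of each list, up to 3 called rises and 3 called falls per comparison with BM were eligible to be named. Genes most like a member were the 5 of highest r.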

Additional observations from a re-analysis of the deposited data

How the results depend on the processing

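Over the settings other than leaving libraries out, 456 of 510 values of the 5 genes kept their direction and their side of the threshold, 31 changed sign, 22 became called and 1, Arg2 in LY6C polysomal RNA against BM with voom, lost its call (2.75, adjusted p = 0.056). Of 465 values with libraries or numbers left out, 377 were unchanged in both respects, 64 changed sign, 5 became called and 19 lost their call. None of the sign changes was in a comparison of sorted cells with BM. Ass1 was called against BM under every alternative run.

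Between the populations (LY6G minus LY6C, log2), Arg1 changed sign with the number as a block, a replicate block that pairs the sorted libraries. It was 0.71 in polysomal and 1.11 in total RNA, 0.71 and 1.11 with the block for sorted cells only, and 0.92 and 0.91 with the block in the compared libraries alone. Ass1 in total RNA turned to 0.12 with either of the first 2 blocks, and Slc7a2 in polysomal RNA to 0.11 with the third. With voom, Arg1 was 0.92 and 0.51 and Slc7a2 in polysomal RNA 0.23. Without a filter Nos2 was called in polysomal and total RNA (adjusted p = 3.69e-08 and 0.0016, against 0.63 to 0.976 and 0.777 to 1 in the other settings, libraries left out aside), so 1 member was called in each, with 88 and 76 genes in all. The cause was not tested.

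With libraries left out, Arg1 ran between −4.01 and 4.99 in polysomal and −2.94 and 4.10 in total RNA, and Nos2 between −6.50 and 3.96 and between −5.07 and 3.56. These ends came from leaving out number 6 of 1 population alone. Ass1 ran between −1.23 and 0.66 and between −0.70 and 0.45, Slc7a2 between −1.68 and 1.5 and between −0.62 and 1.78, and Arg2 between −0.28 and 0.32 and between −0.31 and 0.61. Genes called ran between 0 and 1 in polysomal and 0 and 4 in total RNA, with 3 in polysomal RNA under the block for sorted cells only and 1 in total RNA with voom.

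Against BM, no filter called 5 members in polysomal RNA of each population (24% of all genes in LY6G, 20.3% in LY6C) and 4 in total RNA (19.2% and 16.3%). The replicate block with BM numbers called 4 in LY6G and 5 in LY6C polysomal RNA (47.6% and 42.2% of all genes) and 4 in total RNA of each population (36.7% and 33.7%). This block also took the spread between numbers out of the error. DESeq2 gave no adjusted p for Arg1 and Nos2. With libraries left out, members called in total RNA ran between 1 and 3 in LY6G and between 1 and 2 in LY6C. Genes called ran between 3528 and 4971 in LY6G and 2451 and 4275 in LY6C polysomal RNA, and between 2885 and 3956 and between 2301 and 3722 in total RNA. The low ends came with number 2 left out of the sorted groups. Thinning left 1260 and 1016 in polysomal and 1397 and 1203 in total RNA, voom called 6638 in LY6G total RNA, and the compared libraries alone gave 1959 in LY6C total RNA.

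For polysomal minus total RNA in LY6G, Slc7a2 was −0.014 with median-ratio factors and with DESeq2, and Arg2 was −0.11 with voom. With libraries left out Arg1 ran between −2.48 and 3.72, Nos2 between −2.81 and 3.41, Slc7a2 between −0.83 and 0.92 and Arg2 between −0.12 and 0.49. In LY6C, voom gave −0.33 for Arg1 and −0.26 for Arg2, and with libraries left out Arg1 ran between −4.21 and 5.58, Nos2 between −5.63 and 7.21, Ass1 between −0.085 and 1.89, Slc7a2 between −1.20 and 2.59 and Arg2 between −0.18 and 0.78. In BM, voom gave −0.24 for Slc7a2, and Arg2 ran between −2.60 and 9.5. For the difference of these contrasts between LY6G and LY6C, Arg1 was 0.027 with median-ratio factors and with DESeq2, 0.035 with thinning, 0.038 without a filter, 0.040 with protein-coding genes only, 0.055 in the compared libraries alone and 0.40 with voom. There Nos2 was 0.019 with voom and 0.21 with thinning, Ass1 0.025 with voom, and Arg2 −0.060, −0.062 and −0.019 with the 3 blocks. With libraries left out that difference ran between −4.37 and 5.35 for Arg1, −6.65 and 6.11 for Nos2, −1.06 and 0.89 for Ass1, −2.48 and 1.26 for Slc7a2 and −0.56 and 0.43 for Arg2.

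Genes called in polysomal minus total RNA of LY6G were 4 with DESeq2, 100 with voom, 29 without a filter and 1 with the block for sorted cells only, and between 0 and 4 with libraries left out. In LY6C they were 6 with DESeq2 and 56 without a filter, and 5 were called without a filter for the difference between the populations. In BM they were 200 with median-ratio factors, 129 with voom, 33 after thinning, 145 in the compared libraries alone, 225 there with the block and 767 with the replicate block, and between 125 and 499 with libraries left out. With 3 libraries a group and BM depths near 1 count per CPM, small differences of Arg2, Nos2 or Arg1 from BM cannot be seen. A library left alone beside 1 other was assumed to vary like the rest.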
